A study of Homo sapiens with 2 samples.

Results

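Serine synthesis and folate-dependent carbon transfer were described through 8 enzymes in H6c7, a line of human pancreatic duct epithelial cells immortalised with papillomavirus genes. PHGDH, PSAT1, PSPH, SHMT2, MTHFD2, GLDC, SHMT1 and MTHFD1 were chosen by symbol, and every probe set that the array annotation gives exactly 1 of these symbols was taken, which gave 11 of 19071 such probe sets. One array held RNA of H6c7 cells expressing a K-ras oncogene and the other RNA of parental H6c7 cells. Both lines share the immortalising genes, the labels name no vector control, and whether the oncogene-carrying cells are 1 clone or many is not stated. RNA was hybridised to Affymetrix U133A arrays, with 1 array per line, so the values below carry no replicate error and no test was possible. The level of the introduced oncogene is not analysed here.

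Serine is made from 3-phosphoglycerate, an intermediate of glycolysis. PHGDH oxidises it, PSAT1 adds the amino group and PSPH removes the phosphate. Serine hydroxymethyltransferases then split serine into glycine and a carbon unit carried by tetrahydrofolate, with SHMT2 doing so in mitochondria and SHMT1 in the cytosol. In mitochondria MTHFD2 oxidises that carbon towards formate. The glycine cleavage system, of which GLDC is the decarboxylating subunit, takes another carbon unit from glycine. In the cytosol MTHFD1 interconverts the folate-bound carbon units that feed purine, thymidylate and methionine synthesis. The transcription factor ATF4 is known to induce PHGDH, PSAT1, PSPH, SHMT2 and MTHFD2 when amino acids are short.

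The sequences upstream of the transcript start are shown for PHGDH and PSAT1, whose transcripts were higher in the K-ras line by 2-fold or more, and for MTHFD1, whose transcript was lower by that measure. They are 250 bases from RefSeq (GRCh38.p14), read 5′ to 3′ on the strand of the gene. The PHGDH sequence is chr1:119711684-119711933 (plus strand), the PSAT1 sequence chr9:78296875-78297124 (plus strand) and the MTHFD1 sequence chr14:64388103-64388352 (plus strand). Capitals mark a match to one of 3 motifs searched on both strands.
PHGDH: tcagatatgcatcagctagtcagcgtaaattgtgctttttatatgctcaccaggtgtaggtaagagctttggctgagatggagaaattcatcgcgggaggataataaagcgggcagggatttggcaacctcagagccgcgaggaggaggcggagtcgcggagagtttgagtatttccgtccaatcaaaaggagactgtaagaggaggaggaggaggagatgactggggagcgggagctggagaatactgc
PSAT1: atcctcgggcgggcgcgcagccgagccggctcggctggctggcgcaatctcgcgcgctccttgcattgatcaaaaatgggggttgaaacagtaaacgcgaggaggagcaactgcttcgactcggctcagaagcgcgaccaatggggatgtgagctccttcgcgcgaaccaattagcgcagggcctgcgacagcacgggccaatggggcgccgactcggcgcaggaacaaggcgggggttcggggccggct
MTHFD1: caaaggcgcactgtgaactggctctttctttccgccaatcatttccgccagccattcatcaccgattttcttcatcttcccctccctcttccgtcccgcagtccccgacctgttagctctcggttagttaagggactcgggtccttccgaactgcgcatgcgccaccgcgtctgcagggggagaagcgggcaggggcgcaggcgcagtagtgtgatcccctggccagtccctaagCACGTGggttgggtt

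The motifs were TGATGNAA (reverse complement TTNCATCA), a composite site of ATF4 and C/EBP factors, CACGTG, the E-box bound by MYC among others, and TGACNNNGC (reverse complement GCNNNGTCA), the core of the NRF2 site. Windows of 250 bases before to 50 bases after the start were at hand for 6 of the 8 enzymes. TGATGNAA was in none of the 6 windows and in 3.62% of all 35116 promoter windows. CACGTG was in 1 of 6, that of MTHFD1, where it begins at base -15 relative to the start, and in 7.26% of all windows. TGACNNNGC was in 1 of 6, that of MTHFD2, where it begins at base 7 of the transcript, and in 13.3% of all. GLDC was also lower in the K-ras line by 2-fold or more, but its upstream sequence is not shown. Its window held none of these motifs. These letters were searched only in the stated windows, and a match is a description of the sequence. Between 51.2% (PHGDH) and 70.8% (GLDC) of the 250 upstream bases were G or C, against a median of 58.0% over all promoters.

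Both arrays had been scaled to the same trimmed mean. A floor was set at a signal of 46.9, the higher of the medians of the arrays. A gene under it on both arrays was called not measured, and for a gene under it on 1 array the ratio against the floor is only a bound. The K-ras line had 767 of 7693 measured genes (9.97%) higher by 2-fold or more and 1109 (14.4%) lower by as much, and the median log2 ratio was 0.10. Scaling on 100 maintenance probe sets raised that median to 0.24 and turned the split to 1093 higher and 844 lower, and with no floor it was 2428 higher and 1797 lower. Probe sets of the same gene gave a pooled standard deviation of the log2 ratio of 0.46 over 1671 genes. That value is a spread between probe sets within these arrays and no replicate error. Of 10 duct epithelial markers 9 were measured, of which 4 were lower in the K-ras line by 2-fold or more and none higher, and CFTR was below the floor on both arrays. The 4 were KRT19, EPCAM, SOX9 and CA2. EPCAM (-1.06) and SOX9 (-1.03) were just past 2-fold on the log2 scale, and another SOX9 probe set gave 0.04. CA2 was below the floor on the K-ras array. The other measured duct markers ran from -0.32 (KRT7) to 0.88 (KRT8). Of 22 markers of acinar, endocrine, fibroblast, endothelial and blood cells 7 were measured. Their highest signal was 94.6 on the K-ras array and 131 on the parental array, and none passed 2-fold. CELA3A, COL1A2, PECAM1 and CD3E among them were below the floor on the parental array. Their ratios are bounds, which such dim signals could hardly bring to 2-fold. The K-ras and parental signals were 78.2 and 11.2 for CD3E and 80.6 and 25.3 for PECAM1. They were 51.4 and 22.4 for COL1A2 and 56.3 and 43.1 for CELA3A.

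The first enzymes of serine synthesis had higher transcript levels in the K-ras line, the mitochondrial folate enzymes went different ways, and the one measured cytosolic folate enzyme was lower. Of the 8 enzymes 7 were measured, all 7 above the floor on both arrays. PHGDH and PSAT1 were at least 2-fold higher (9.97% of measured genes were), GLDC and MTHFD1 passed 2-fold on the lower side (14.4% of measured genes did), and PSPH, SHMT2 and MTHFD2 had positive log2 ratios under the 2-fold threshold. The median log2 ratio was 1.85 over the 3 serine synthesis enzymes and 0.18 over the 3 mitochondrial folate enzymes. MTHFD1 alone gave the cytosolic value of -1.10. At 3-fold PHGDH and PSAT1 were still counted as higher (2.4% of measured genes were), and no enzyme as lower (6.24% were).

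**Figure D1:**
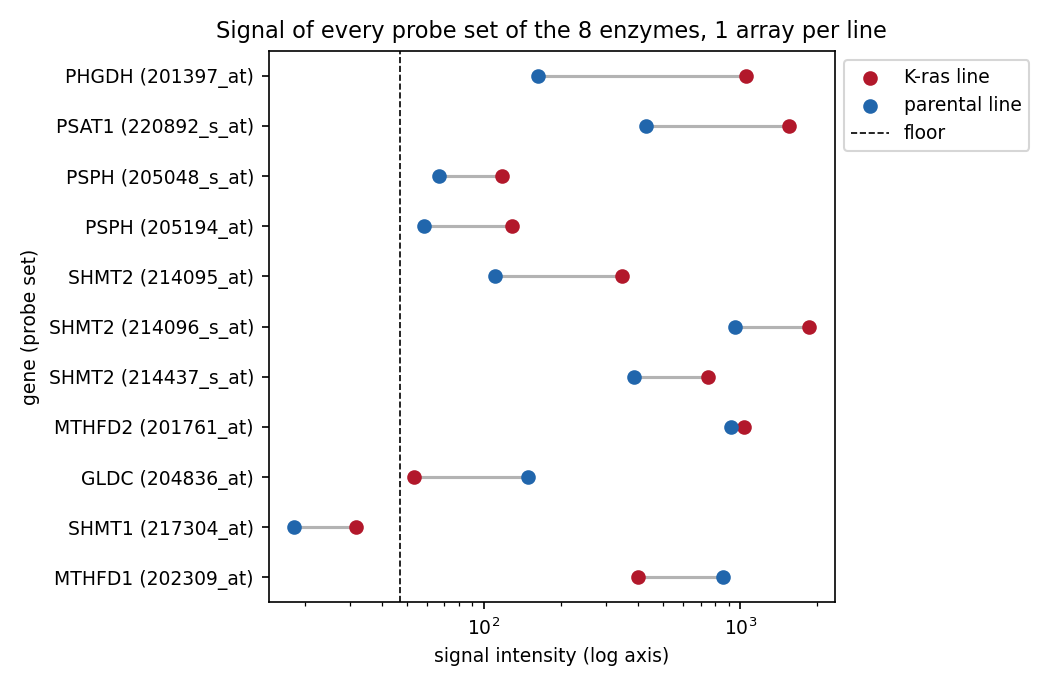
Signal intensity (log axis) of the 11 probe sets of the 8 enzymes on the K-ras array (red) and the parental array (blue), with the floor of 46.9 as a dashed line. The red point lies right of the blue one for all probe sets except those of GLDC and MTHFD1, and both SHMT1 points lie below the floor.

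PHGDH catalyses the first step of serine synthesis. Its single probe set had a signal of 1052 on the K-ras array and 162.5 on the parental array, a 6.47-fold difference. In RNA of a whole culture, a change in the share of cells expressing a gene and a change in RNA per cell cannot be told apart. Only 0.273% of measured genes had a higher ratio, and PHGDH ranked 22 of 7693. PSAT1, the aminotransferase of the next step, had a signal of 1554 on the K-ras array and 429.6 on the parental array, 3.62-fold higher, at rank 95. It rests on 1 probe set whose name ends in _s_at, a type that can match several transcripts.

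PSPH, the phosphatase of the last step, was dim on both arrays. One probe set had a signal of 118 on the K-ras array and 66.9 on the parental array, 1.76-fold higher. The other had 129 on the K-ras array and 58.6 on the parental array, 2.19-fold higher. The brighter probe set was used for the gene, so PSPH was not counted as at least 2-fold higher, while its other probe set lay on the far side of the threshold. Parental signals were only 1.43 and 1.25 times the floor. The ratios ran in the order of the pathway, PHGDH above PSAT1 above PSPH. The log2 ratios of 2.69 and 1.85 for PHGDH and PSAT1 are 0.84 apart, and a difference of 2 ratios has a spread of 0.65 from the probe set standard deviation alone.

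**Figure D2:**
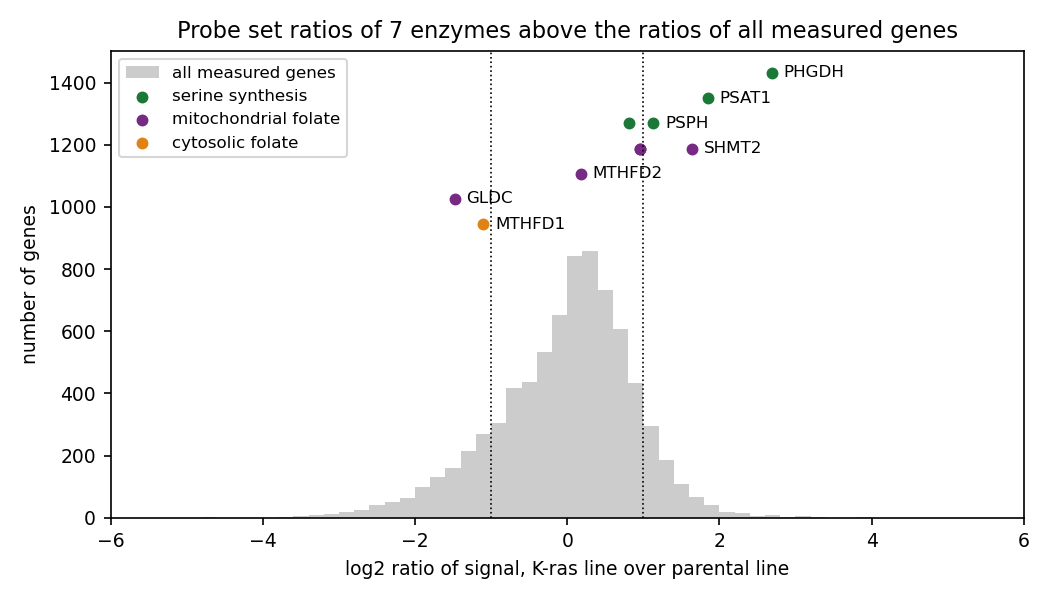
Log2 ratio of signal, K-ras line over parental line, for each probe set of the 7 measured enzymes (coloured points, placed above the bars at arbitrary heights) and for all 7693 measured genes (grey bars, number of genes). Dotted lines mark 2-fold. PHGDH and PSAT1 lie in the right tail at 2.69 and 1.85, and GLDC and MTHFD1 lie left of the lower line at -1.48 and -1.10.

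SHMT2, which takes serine apart in mitochondria, had positive ratios in each of its 3 probe sets. The brightest had a signal of 1850 on the K-ras array and 951.0 on the parental array, 1.95-fold higher and just under the threshold, or 2.23-fold with scaling on maintenance probe sets. A second had 748 on the K-ras array and 386.3 on the parental array, 1.94-fold higher. The third had 345 on the K-ras array and 110.2 on the parental array, 3.13-fold higher. The first 2 probe sets are of the _s_at type and the third is not. The log2 ratios were 0.96, 0.95 and 1.65. The range of 3 values cannot be set directly against the pooled standard deviation of 0.46, which describes single values.

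MTHFD2, the mitochondrial dehydrogenase and cyclohydrolase, was bright and nearly equal on the arrays. Its signal was 1036 on the K-ras array and 916.1 on the parental array, a log2 ratio of 0.18, with 45.4% of measured genes higher than it. GLDC had a signal of 53.2 on the K-ras array and 148.5 on the parental array, 2.79-fold lower. The K-ras signal was 1.13 times the floor, so that ratio is close to a bound. With the floor at the 70th percentile (121.8), GLDC was below it on the K-ras array and its log2 ratio was a bound of -0.29. With the floor as a pseudocount it was -0.97, also short of 2-fold.

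SHMT1, the cytosolic partner of SHMT2, was not measured. Its one probe set named for a single gene had a signal of 31.7 on the K-ras array and 18.2 on the parental array, both below the floor, so no ratio is given and the SHMT2 and SHMT1 ratios could not be set against each other. Another 2 probe sets carry a symbol of the 8 enzymes together with those of other genes, and they were left out. MTHFD1, the cytosolic enzyme with synthetase, cyclohydrolase and dehydrogenase activities, had a signal of 399 on the K-ras array and 855.9 on the parental array, 2.14-fold lower. Its log2 ratio was -0.90 when the arrays were scaled on 100 maintenance probe sets, under 2-fold.

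The pair of methylene-tetrahydrofolate dehydrogenases differed in their ratios across compartments. The log2 ratio of MTHFD2 minus that of MTHFD1 was 1.28. A difference of 2 ratios has a spread of 0.65 from the probe set standard deviation alone, which holds no replicate error. The difference between MTHFD2 and MTHFD1 ranged from 0.97 to 1.28 over 12 alternative settings, but most of them could not move it. A common scaling cancels in the difference, and both genes have 1 probe set well above the floor. The difference was 1.22 with quantile normalization, 1.26 with a loess curve, 1.19 with the floor as a pseudocount and 0.97 with the span trend removed. Each gene has 1 probe set, and no replicate arrays exist, so the value is a difference between these 2 arrays.

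**Figure D3:**
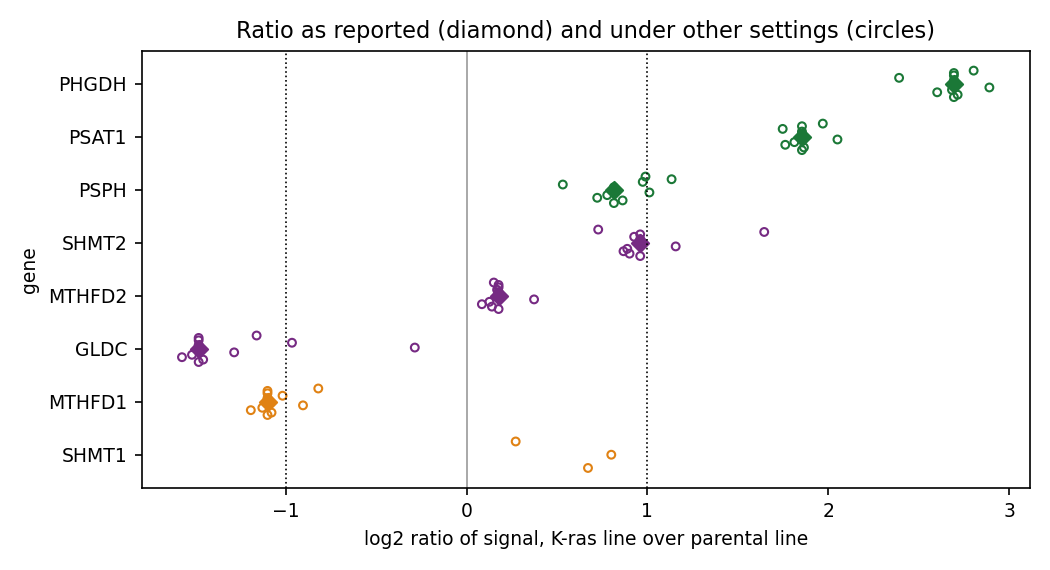
Log2 ratio of signal, K-ras line over parental line, for each enzyme as reported (diamonds) and under the alternative settings of scaling, floor, probe set choice and gene span (circles). Dotted lines mark 2-fold. All PHGDH and PSAT1 values lie right of the upper line, MTHFD2 stays between 0.09 and 0.37, and SHMT1 has values only with the floor at the 30th percentile, with no floor and with the floor as a pseudocount.

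The lower enzymes are also the ones with the longest genes. MTHFD1 spans 71.7 kb and GLDC 113 kb in GRCh38.p14, whereas PHGDH, PSAT1 and PSPH span 32.3, 33.0 and 40.4 kb, MTHFD2 19.0 kb and SHMT2 5.23 kb. Over all measured genes, 19.8% of the 1920 genes of 70 kb and over were lower by 2-fold or more, with a median log2 ratio of -0.14. Of the 4563 genes under 40 kb, 10.9% were lower by that much, with a median of 0.23. After a curve of the log2 ratio on gene span was removed, an alternative added after seeing the data, MTHFD1 had a log2 ratio of -0.82 and GLDC -1.16, while PHGDH and PSAT1 had 2.80 and 1.97. The part of gene span in these differences was not tested.

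**Figure D4:**
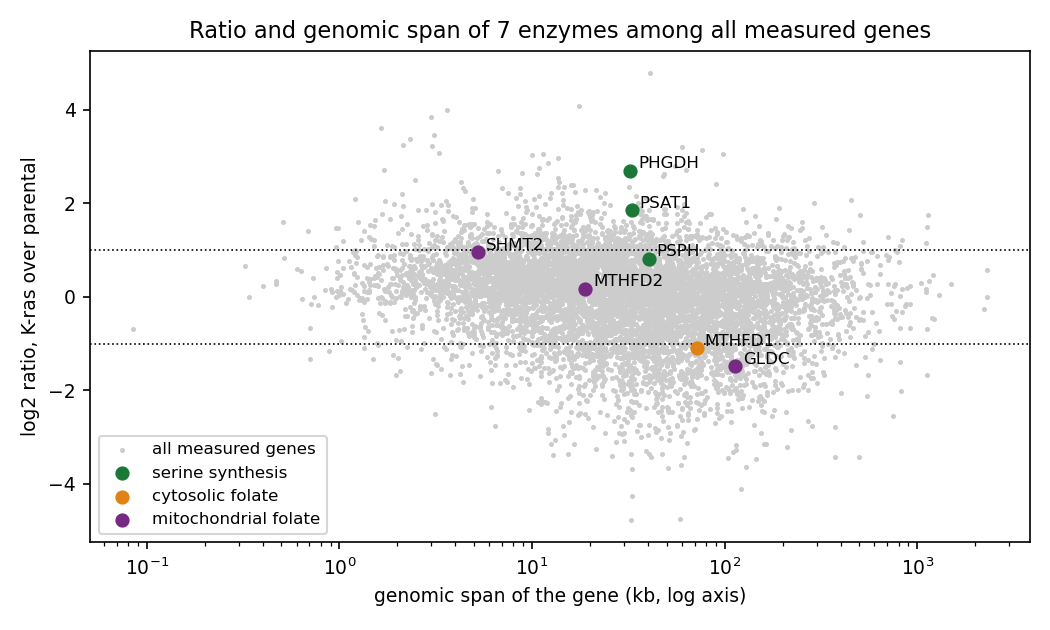
Log2 ratio of signal, K-ras line over parental line, against the genomic span of the gene (kb, log axis) for all measured genes (grey) and the 7 measured enzymes (coloured by role). Dotted lines mark 2-fold. MTHFD1 and GLDC, at 71.7 and 113 kb, are the only enzymes below the lower line.

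Other listed genes of serine, folate and methionine metabolism and their regulators mostly did not share the higher levels of PHGDH and PSAT1. Of 52 listed genes 40 had a probe set named for them alone and 33 were measured. The 33 include 4 known regulators, of which ATF4 counted as higher and NFE2L2 as lower. Of these 33, 2 passed 2-fold on the higher side and 9 on the lower side, with a median log2 ratio of -0.35 against 0.10 over all measured genes. Against 9.97% higher and 14.4% lower among all measured genes, this is a description and not a test.

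Among 10 measured genes of serine supply and use 1 was higher and 2 were lower (median log2 ratio -0.42). CBS, which joins serine to homocysteine, had a signal of 189 on the K-ras array and 42.1 on the parental array, below the floor, so it was at least 4.03-fold higher. With the floor at the 70th percentile its bound was 0.63 on the log2 scale, short of 2-fold. CTH, which acts after CBS, was 51.0 on the K-ras array and 29.6 on the parental array, a bound of 0.12 on the log2 scale. SRR, serine racemase, had a log2 ratio of -1.17, but its other probe set gave 0.50. SPTLC1, a subunit of the enzyme that starts sphingolipid synthesis from serine, was 2.08-fold lower with a second probe set at -1.29. Its log2 ratio fell short of 2-fold with scaling on maintenance probe sets (-0.86), with the floor as a pseudocount (-0.98) and with the span trend removed (-0.75). PTDSS1, a phosphatidylserine synthase, had a log2 ratio of -0.28.

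The remaining parts of the glycine cleavage system are given along with GLDC, and GCSH and AMT among them were chosen after their values were seen. DLD, the dehydrogenase subunit that this system shares with pyruvate dehydrogenase, had a signal of 67.0 on the K-ras array and 565.1 on the parental array, 8.43-fold lower. The K-ras signal was 1.43 times the floor, and the log2 ratio of -3.08 became -2.43 with the floor as a pseudocount and a bound of -2.21 with the floor at the 70th percentile. GCSH, the lipoyl carrier protein, gave log2 ratios of -0.91 and -0.48. AMT, the aminomethyltransferase, was 57.9 on the K-ras array and 39.3 on the parental array, a bound of 0.30 on the log2 scale. DLD was the one gene at least 2-fold lower among 4 measured genes of the mitochondrial folate list, and none was higher (median -0.87).

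Of 6 measured genes of the cytosolic folate list 2 were lower and none higher (median log2 ratio -0.68). TYMS, which makes thymidylate with a folate-bound carbon, was 201 on the K-ras array and 1115 on the parental array, 5.55-fold lower. MTR, methionine synthase, was 34.7 on the K-ras array, below the floor, and 141.4 on the parental array, at least 3.01-fold lower. With the floor at the 70th percentile its bound was -0.22 on the log2 scale, short of 2-fold. The purine synthesis enzymes GART and ATIC had log2 ratios of -0.47 and 0.47, with other GART probe sets from -1.26 to 0.53. Among 4 measured genes of folate uptake and storage 1 was lower, GGH, the hydrolase that shortens folate polyglutamate chains, at 3.33-fold. In the methionine cycle 2 of 5 were lower and none higher. MAT2A, the catalytic subunit of S-adenosylmethionine synthesis, was 5.14-fold lower (a second probe set had a log2 ratio of -1.58), and its regulatory partner MAT2B was 2.39-fold lower. AHCY had a log2 ratio of 0.70. AHCYL1 had one of -0.07, but its other probe sets gave 0.47 and 0.58.

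Of 4 measured factors known to regulate these genes 1 was higher and 1 lower. ATF4 had a signal of 4879 on the K-ras array and 1272 on the parental array, 3.84-fold higher. MYC was 1501 on the K-ras array and 911.9 on the parental array, a log2 ratio of 0.72. NFE2L2, which encodes NRF2, was 190 on the K-ras array and 462.2 on the parental array, 2.43-fold lower. Of the 5 enzymes named above as ATF4 targets, PHGDH and PSAT1 passed 2-fold, PSPH and SHMT2 had log2 ratios of 0.82 and 0.96, and MTHFD2 had 0.18.

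**Figure D5:**
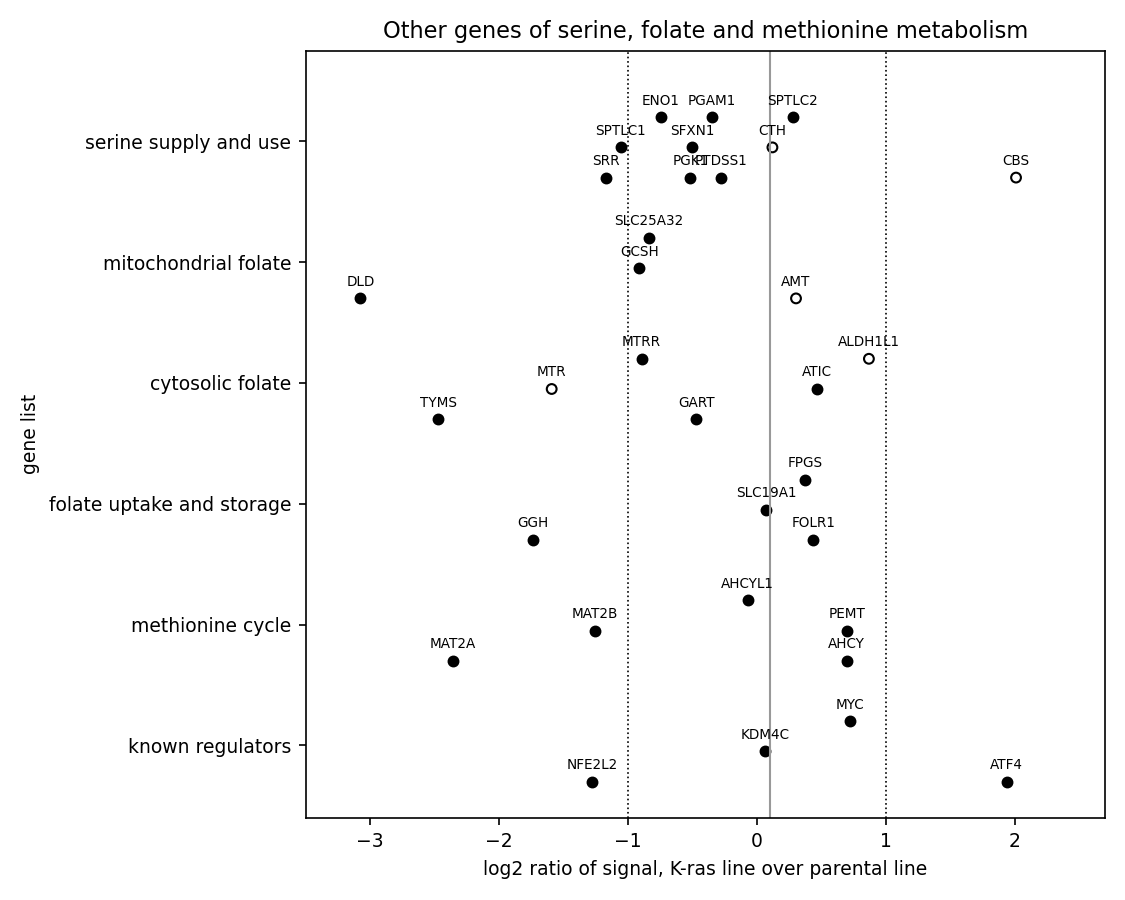
Log2 ratio of signal, K-ras line over parental line, for the 33 measured genes of 6 lists of serine, folate and methionine metabolism and their regulators. Filled points were above the floor on both arrays and open points are bounds, dotted lines mark 2-fold and the grey line the median of all measured genes (0.10). CBS and ATF4 lie right of the upper line and 9 genes lie left of the lower one, DLD furthest at -3.08.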

How the data were processed

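Total RNA of each line was extracted with phenol and chloroform, cleaned on columns and made into cRNA by the standard Affymetrix procedure, per the labels. The authors deposited linear intensities of 22283 probe sets, 68 of them controls. Their software is not given in the sources. With 2% of values trimmed at each end, both deposited columns averaged 150.06, and the arrays were rescaled to it. Genes were named through the array annotation, which pairs 19071 probe sets with 1 symbol, 1043 with several and leaves 2169 unnamed here; 19059 of the 19071 matched GRCh38.p14 by gene number.

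The gene value was that of the probe set with the highest mean log2 signal. The 8 enzymes, the gene lists and the settings were chosen with earlier results of these data known. All probe sets of the enzymes are named, and of the other lists up to 4 genes per direction at 2-fold, the pair nearest 0 in lists of more than 4 measured genes, ATF4, MYC and NFE2L2. With 1 array per group no test was made, and the number of arrays limits precision. Calling was tested on simulated data. Alternatives covered scaling, floor, probe set choice, a 3-fold threshold and gene span. Python 3.11.15, numpy 2.4.6, pandas 2.3.3, statsmodels 0.14.6 and matplotlib 3.10.9 were used.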

Additional observations from a re-analysis of the deposited data

How the results depend on the processing

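PHGDH, PSAT1, PSPH, SHMT2, MTHFD2, GLDC and MTHFD1 kept the sign of their log2 ratio under every alternative setting that gave a value. Of 82 such values 79 moved by less than the spread between probe sets, but many could not move. The floor at the 30th percentile and no floor left every one of these enzymes unchanged. Probe set choice cannot alter PHGDH, MTHFD1, MTHFD2 or GLDC, with 1 probe set each. The count of 79 is therefore no measure of stability. PSAT1 has no value without _x_at and _s_at probe sets, nor PSPH with the floor at the 70th percentile. SHMT2 without _x_at and _s_at probe sets was at 1.65. The cytosolic folate median was -0.37 with the floor as a pseudocount, -0.21 with the floor at the 30th percentile and -0.15 with no floor, settings in which SHMT1 enters it at 0.27, 0.67 and 0.80. Enzymes at least 2-fold higher numbered 4 in place of 2 with scaling on maintenance probe sets, where PSPH and SHMT2 passed at 1.01 and 1.16 and the share of all measured genes that were higher was 14.4% in place of 9.97%. Enzymes at least 2-fold lower numbered 1 in place of 2 with that scaling, with the floor as a pseudocount, with the floor at the 70th percentile and with the trend with gene span removed, and 0 at 3-fold. The share of all measured genes that were lower fell too, from 14.4% to 11.1%, 7%, 12.7%, 12.7% and 6.24% in that order. Of the other listed genes, the 2 that were higher became 1 with the floor at the 70th percentile and without _x_at and _s_at probe sets, and 4 with the span trend removed. In these settings 29, 18 and 33 listed genes were measured. The share of all measured genes that were higher was 9.04%, 9.88% and 11.1%, against 9.97%. The higher listed genes numbered 3 with the floor at the 30th percentile and with no floor, where that share was 13.9% and 20.3%. The 9 that were lower became 5 at 3-fold, where the share of all measured genes was 6.24% in place of 14.4%. They became 6 without _x_at and _s_at probe sets (share 15.5%) and 10 with median centring (share 16.2%). Under the other settings their number lay between 6 and 10. SRR turned to 0.50 without _x_at and _s_at probe sets. Except where a setting's construction shows it, the cause was not tested. No paired analysis was possible because each group has 1 array.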
